A study of Mus musculus with 6 samples.

Results

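The Crumbs and Par complexes set up the apical pole of epithelial cells, and 10 of their genes were followed here in S-phase progenitors of the embryonic mouse cortex: Crb2, Pals1 and Patj of the Crumbs complex, Pard3, Pard3b, Pard6b, Pard6g, Prkci and Prkcz of the Par complex, and Llgl1, a substrate and antagonist of the Par complex kinase. A probe belonged to a member when the transcript accession it was designed on maps to that gene in RefSeq, where Pals1 is listed as Mpp5. All 10 genes had a probe among the 19988 named genes on the array, with 19 probes in all. Of these, 8 genes (16 probes) were well above background on all 6 arrays and entered the test. Pard3b and Llgl1 did not.

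The 6 arrays compared Tis21-GFP positive with Tis21-GFP negative cells, 3 arrays each. Both groups came from dorsal telencephalon at embryonic day 14.5, from heterozygous Tis21-GFP knock-in embryos on the C57BL/6 background, bred from homozygous males and wild-type females, so the positive and the negative cells carried the same single knock-in allele. The cells were sorted by a vital DNA dye for a DNA content between 2N and 4N, and by GFP. Each replicate pooled about 200000 cells from 30 hemispheres of 15 embryos, and the authors kept the 3 sets they judged best of 4 experiments, by a rule not given in the sources used here. The Tis21 (Btg2) locus is switched on in progenitors committed to making neurons. GFP protein outlives its transcript, so the sort defines a population and not a single cell type.

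In radial glia, the progenitors that line the ventricle, both complexes sit at the apical endfoot beside the adherens junctions. Crumbs is a transmembrane protein whose short tail holds Pals1, which in turn holds the scaffold Patj. In the Par complex, the scaffold Par3 brings the adaptor Par6 and an atypical protein kinase C (encoded by Prkci or Prkcz) to the junction, where the kinase phosphorylates Lgl and keeps it off the apical cortex. Intermediate progenitors leave the apical surface when they form, and loss of Pals1 or of Llgl1 in mice disturbs the balance between progenitors and neurons in this tissue.

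Across all 13136 tested genes, 25.9% were called in either direction, 12.8% higher and 13.1% lower in positive cells (limma, adjusted p under 0.05), and in 46.7% the values of the groups did not overlap. Taken over these genes, log2 differences had a median of 0.12 as scaled here, which ran from -0.06 to 0.30 over the other settings, and differences below are given without subtracting it. Correlations across genes were 0.983 to 0.992 within groups and 0.954 to 0.972 between them. Of the 12 listed markers of intermediate progenitors, 12 were higher and 0 lower in positive cells, among them Btg2, the Tis21 gene itself, whose direction the sort had set (0.77). Their summed level was 344 to 386 on the positive arrays and 49.8 to 74 on the negative arrays, in multiples of each array's 75th percentile. Of 15 radial glia markers, 12 were lower and 0 higher, at 266 to 336 on the positive arrays and 547 to 624 on the negative arrays.

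The 3 Crumbs complex genes were all lower in Tis21-GFP positive cells, with a median log2 difference of -1.07. In the Par complex the 5 tested genes went both ways, with a median of -0.18: Pard3 was higher, Prkcz and Pard6b were lower, and Pard6g and Prkci did not pass the test. Over the 8 tested members, 5 were lower and 1 higher, and the groups did not overlap for 6. Among all tested genes, 13.1% were lower and 12.8% higher, and the groups did not overlap for 46.7%. The lower count was 3 with median centring, 2 when dim probes were kept, and 3 when either positive replicate 1 or negative replicate 3 was left out. The members were picked as a known set, with earlier results of these data known, and they are few. These counts therefore describe them and carry no test of the set.

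Crb2, the transmembrane protein of the Crumbs complex, showed the widest separation of the members tested. Its scaled log2 signal (relative to the array's 75th percentile) was 1.04, 0.40 and 0.69 on the positive arrays, against 2.98, 2.58 and 2.60 on the negative arrays. Every positive array lay more than 1 log2 unit below every negative array. Crb2 was 4.03-fold lower in positive cells, a log2 difference of -2.01 ± 0.20 (SE, 3 arrays per group, limma adjusted p = 0.00045). Only 240 of the 13136 tested genes had a more negative difference. The 3 pairs of same-numbered arrays gave -1.94, -2.18 and -1.91, and Crb2 was called under all 15 alternative settings, between -2.18 and -1.83.

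Pals1, the adaptor that joins Crumbs to Patj, had values of 0.06, 0.23 and 0.11 on the positive arrays and 0.59, 0.67 and 0.83 on the negative arrays. The groups did not overlap, at a difference of -0.57 ± 0.13 (adjusted p = 0.0175). It kept its sign in all 15 alternatives, several of which could not change it, and lost its call in 4 of them. These were median centring (-0.38) and dim probes kept (-0.57, adjusted p = 0.0506). The others left out positive replicate 1 (-0.53) or negative replicate 3 (-0.50).

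Patj, the scaffold with many PDZ domains at the inner end of the complex, was measured by its brightest probe at -0.41, -0.82 and -0.55 on the positive arrays, against 0.30, 0.52 and 0.60 on the negative arrays. The difference was -1.07 ± 0.16 (adjusted p = 0.00238). The groups did not overlap, so it was negative in each of the 3 pairs. With the mean of its 5 probes in place of the brightest, the difference was -0.55 and still passed (adjusted p = 0.0419).

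**Figure D1:**
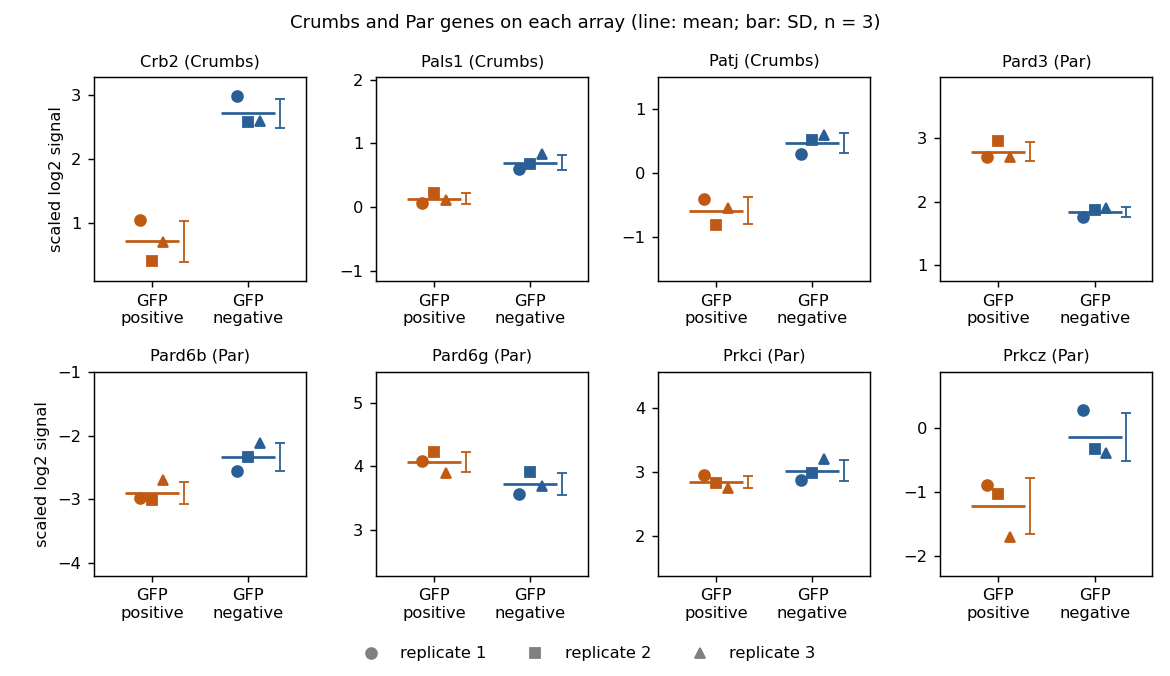
Scaled log2 signal (log2 processed intensity minus the array's 75th percentile) of the 8 tested Crumbs and Par genes on each array, positive arrays on the left of each panel and negative arrays on the right. Horizontal lines are means, bars are SD (n = 3), symbols mark the replicate number, and every panel spans the same number of log2 units. The Crb2 values of 0.40 to 1.04 on the positive arrays sit below those of 2.58 to 2.98 on the negative arrays, whereas Pard3 is higher on the positive arrays and the Pard6g and Prkci values overlap.

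Pard3, the Par complex scaffold, was the single member called higher. Its values were 2.70, 2.95 and 2.70 on the positive arrays and 1.75, 1.88 and 1.90 on the negative arrays, without overlap. The difference was 0.94 ± 0.14 (1.92-fold, adjusted p = 0.00203), and 457 tested genes had a larger one. It passed in all 15 alternatives, between 0.77 and 1.12.

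Of the atypical kinase genes, Prkcz was called lower and Prkci was not called. Prkcz stood at -0.89, -1.03 and -1.71 on the positive arrays and at 0.29, -0.32 and -0.38 on the negative arrays, a difference of -1.07 ± 0.26 (adjusted p = 0.0207). Positive replicate 3 was the lowest value and negative replicate 1 the highest. The call was lost without Tis21-GFP negative replicate 1 (-0.86, adjusted p = 0.0712) and with no filter on dim probes (adjusted p = 0.0559). Prkci had 2.95, 2.83 and 2.76 on the positive arrays and 2.88, 2.99 and 3.21 on the negative arrays. These ranges overlap, and its difference of -0.18 (95% interval -0.51 to 0.15) did not pass (adjusted p = 0.361).

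Pard6b and Pard6g encode adaptors that bind the kinase and the small GTPase Cdc42. Pard6b was the dimmest tested member, with -2.98, -3.01 and -2.70 on the positive arrays and -2.55, -2.33 and -2.12 on the negative arrays. Its difference of -0.56 ± 0.16 passed narrowly (adjusted p = 0.0392) and was not called in 10 of the 15 alternatives. It was -0.19 after normexp background correction. That correction added an offset of 50 intensity units to every spot, which narrows log2 differences between dim signals. Pard6g had 4.09, 4.22 and 3.90 on the positive arrays and 3.56, 3.92 and 3.70 on the negative arrays. Its difference of 0.34 (95% interval -0.01 to 0.70, adjusted p = 0.131) did not pass in the main setting or in any of the 15 alternatives.

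**Figure D2:**
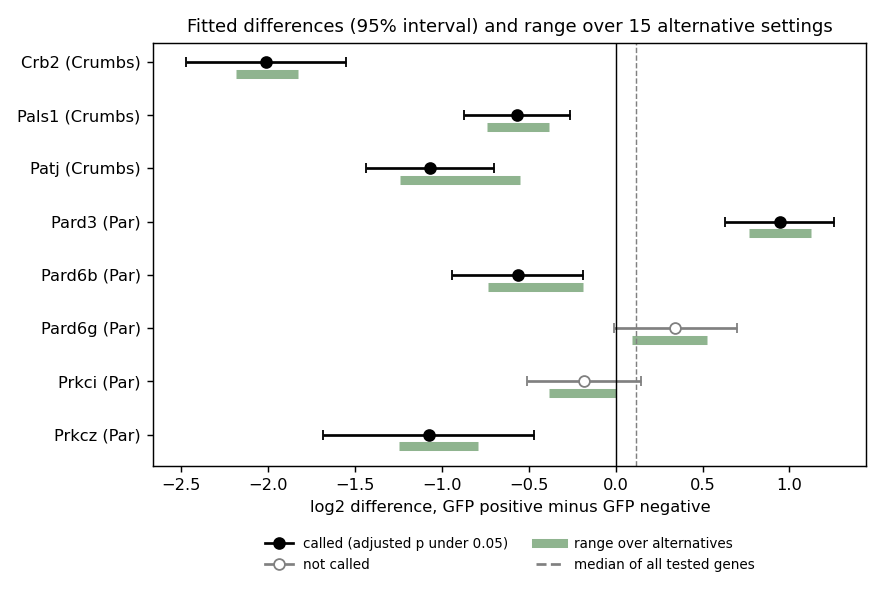
Fitted log2 difference (positive minus negative) of the 8 tested genes with its 95% interval, filled where the adjusted p was under 0.05. Green bars give the range over the 15 alternative settings and the dashed line the median of all tested genes. The Crb2, Patj and Pard3 intervals and green bars lie clear of 0, and the intervals of Pard6g and Prkci cross it.

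Pard3b, a paralog of Pard3, was well above background on 1 positive and 2 negative arrays. Its signal was -5.56, -3.98 and -3.92 on the positive arrays and -4.69, -3.69 and -3.79 on the negative arrays, and the groups overlapped. The single Llgl1 probe was not well above background on any array, at -6.25, -6.33 and -4.46 on the positive arrays and -6.05, -6.42 and -5.97 on the negative arrays, so the Lgl branch could not be compared through it. Llgl2, its paralog and no member, was measured on all 6 arrays with a difference of -0.11 (adjusted p = 0.562).

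Several probes reported on 3 of the members. The tests on single probes and between probes were chosen after seeing the data. The 4 Pard3 probes, designed on 3 RefSeq transcripts, gave differences of 0.94, 1.08, 0.93 and 0.83, each past the threshold when probes were tested one by one, and on each of them the groups did not overlap. Both Prkcz probes above background gave -1.07 and -1.13 and passed, whereas the other was not well above background on any array. The 5 Patj probes ran from -1.07 to -0.01. The brightest pair, designed on NM_172696, gave -1.07 and -0.84 and passed. The probe on NM_001005787 gave -0.74 ± 0.27 (adjusted p = 0.0796) and the pair on NM_001005784 gave -0.01 and -0.11, with overlapping groups. A test of whether probes of 1 gene differ from each other in their group difference did not pass for Patj (diffSplice in limma, adjusted p = 0.411), Pard3 (0.999) or Prkcz (0.999), with 33 of 3438 genes with several probes passing it (0.96%).

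**Figure D3:**
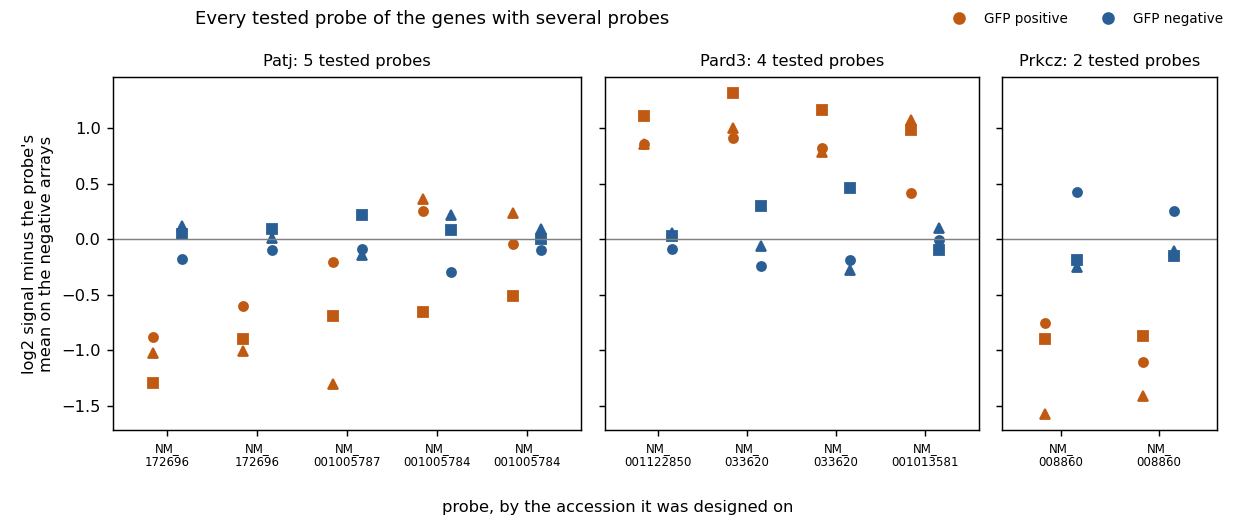
Log2 signal of every tested probe of Patj, Pard3 and Prkcz on each array, less that probe's mean on the negative arrays, with positive arrays in orange and negative arrays in blue and symbols for the replicate as in the plot of values by array. All 4 Pard3 probes and both Prkcz probes separate the groups, whereas the Patj probes range from a difference of -1.07 on the left to overlapping groups for the 2 on the right.

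Differences between 2 members within an array do not depend on how arrays are scaled by a constant. The Crb2 minus Pard3 difference, less its mean on the negative arrays, was -2.54, -3.43 and -2.89 on the positive arrays and 0.35, -0.18 and -0.18 on the negative arrays, a shift of -2.95. Prkci minus Prkcz shifted by 0.89, with 0.68, 0.70 and 1.31 on the positive arrays and -0.58, 0.15 and 0.43 on the negative arrays. Pard6b minus Pard6g shifted by -0.91, with -1.01, -1.17 and -0.54 on the positive arrays and -0.06, -0.19 and 0.24 on the negative arrays. Each shift follows from the log2 differences of its 2 members given above and is no separate evidence. In each of these 3 comparisons the groups did not overlap as scaled here, and the share of other gene pairs without overlap was not computed. For Prkci minus Prkcz they did overlap under quantile normalization and in the authors' processed values (a shift of 0.66 and an exact permutation p of 0.3 in both), and for Pard6b minus Pard6g after normexp background correction. The exact two-sided permutation p was 0.1 in each (0.1 after Benjamini-Hochberg adjustment over the 3), the smallest that 3 arrays against 3 can give, so none could pass 0.05. Pard3 minus Pard3b was not formed because Pard3b was near background.

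**Figure D4:**
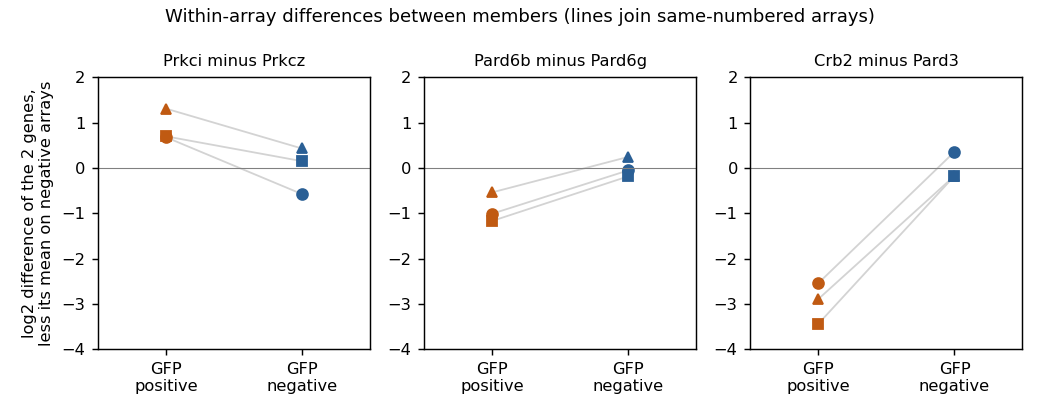
Within-array log2 difference between 2 members, less its mean on the negative arrays, on the positive arrays (left) and the negative arrays (right), with grey lines joining arrays of the same replicate number. The 3 lines run the same way in every panel, which follows from groups that do not overlap. The Crb2 minus Pard3 panel has the largest shift of the 3, -2.95.

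The stretches before the annotated start of 3 members that were lower together are shown because the RefSeq promoter table covers them outside the gene body. They are from GRCm38.p6, read in the direction of transcription. Capitals mark CAGGTG or its reverse complement on either strand, the E-box that Snail and Zeb repressors bind in epithelial cells. It was chosen after several other motifs had been looked at in these windows. The Crb2 stretch lies at chr2:37775999-37776224 (plus strand), the Pard6b stretch at chr2:168080754-168081003 (plus strand) and the Prkcz stretch at chr4:155361429-155361678 (minus strand).
Crb2: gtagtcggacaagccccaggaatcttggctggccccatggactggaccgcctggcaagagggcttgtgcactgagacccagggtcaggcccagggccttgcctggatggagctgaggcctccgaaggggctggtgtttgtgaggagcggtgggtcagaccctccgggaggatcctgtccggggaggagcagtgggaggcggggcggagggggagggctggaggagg
Pard6b: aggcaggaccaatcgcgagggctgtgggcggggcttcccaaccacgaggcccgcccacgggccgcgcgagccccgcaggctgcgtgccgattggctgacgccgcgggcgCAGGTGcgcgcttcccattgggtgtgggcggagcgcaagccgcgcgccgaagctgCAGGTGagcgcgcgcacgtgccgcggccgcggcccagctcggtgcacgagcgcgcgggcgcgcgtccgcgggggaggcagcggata
Prkcz: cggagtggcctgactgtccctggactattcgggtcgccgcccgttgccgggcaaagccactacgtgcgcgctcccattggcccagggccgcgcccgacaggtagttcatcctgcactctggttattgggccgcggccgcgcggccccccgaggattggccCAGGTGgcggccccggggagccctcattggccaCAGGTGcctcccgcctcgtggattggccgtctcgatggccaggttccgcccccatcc

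Pard6b and Prkcz each hold 2 copies of these letters within 250 bases before the start and Crb2 holds 0. Of the 32851 windows of 250 bases in the table, 17.2% held at least 1 copy and 2.06% held 2 or more. These shares are not matched for base composition. The median GC content of all windows was 52.4%, against 77.6% for the Pard6b window, 70.8% for Prkcz and 68.8% for Crb2. Among the 13 windows listed for 8 of the members, 5 held a copy. The window before the second listed start of Pard3, the member that was higher, held 3 copies. Unlike the stretches shown, that window lies inside the annotated gene, and the window before the first Pard3 start held 0. A link between these letters and the direction of a member was not tested, and a match describes the sequence and not a bound site.

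Of 59 other genes of apical polarity, 53 were tested, of which positive cells had 6 higher and 5 lower. Those counts are no larger a share than over all tested genes, where 12.8% were higher and 13.1% lower. The same shares are the background for each list below. The median difference of the 53 was 0.08, against 0.12 for all tested genes. Among the remaining Crumbs, Par and Scribble genes, 1 of 16 tested was higher and 0 lower. That gene was Dlg3, a membrane-associated scaffold of the Scribble group, with 4.00, 4.31 and 4.14 on the positive arrays and 3.49, 3.49 and 3.43 on the negative arrays (difference 0.68 ± 0.13, adjusted p = 0.00895). The direct partners Pard6a (0.29, adjusted p = 0.217), Cdc42 (0.03, adjusted p = 0.892) and Scrib (0.30, adjusted p = 0.142), named after their values were seen, did not pass. Crb3 was not well above background on any array.

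Of 17 tested junction scaffolds and adhesion receptors, 2 were higher and 4 lower. The scaffold gene Magi1 rose by 0.99 ± 0.14 (adjusted p = 0.00172) and Amot, whose protein angiomotin binds Patj, by 0.81 ± 0.15 (adjusted p = 0.00632). The nectin gene Nectin3, an adhesion receptor of adherens junctions, had 0.22, 0.16 and 0.71 on the positive arrays and 1.11, 1.17 and 1.41 on the negative arrays, a difference of -0.87 ± 0.18 (adjusted p = 0.0115). Cingulin, encoded by Cgn, differed by -0.64 ± 0.14 and was not called with median centring (-0.46). The other two that were lower, Nectin2 at -0.60 and the Par3-binding receptor gene F11r at -0.65, were named after their values were seen. The median of this list was -0.14, with a range of -0.32 to 0.04 over the settings, so its sign was not stable.

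Of 20 tested regulators, effectors and spindle partners, 3 were higher and 1 lower. Numbl, a Numb-family endocytic adaptor, rose by 1.33 ± 0.15 (adjusted p = 0.000748), with 3.26, 3.59 and 3.29 on the positive arrays and 1.95, 1.99 and 2.21 on the negative arrays. Its paralog Numb, named after its value was seen, differed by -0.41 and did not pass (adjusted p = 0.096). Ezr, which encodes the membrane-to-actin linker ezrin, rose by 0.97 ± 0.18 and the spindle gene Numa1 by 0.75 ± 0.14. Wwc2, a paralog of the gene for the kinase-binding protein Kibra, had 0.97, 0.50 and 0.73 on the positive arrays and 2.38, 2.69 and 2.63 on the negative arrays, a difference of -1.83 ± 0.17 (adjusted p = 0.000339) and close to that of Crb2 in size.

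**Figure D5:**
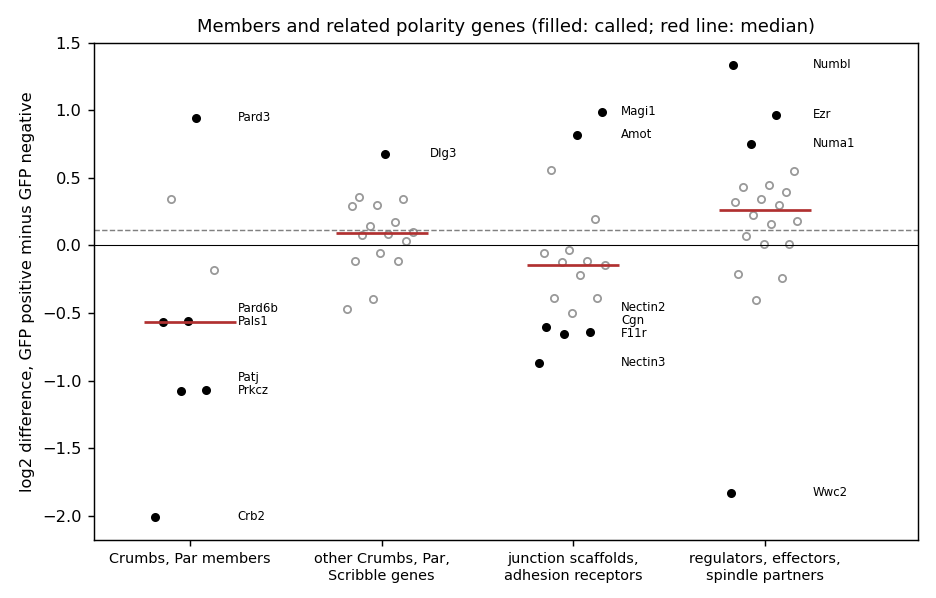
Log2 difference (positive minus negative) of the 8 tested members and of the 3 lists of related genes, filled and named where called, with the median of each set in red and the median of all tested genes dashed. Crb2 at -2.01 and Wwc2 at -1.83 are the lowest points shown, and Numbl at 1.33 and Magi1 at 0.99 the highest.

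Across the 6 arrays, the tested genes whose centred values lay nearest to those of Crb2 were Bcan, which encodes the matrix proteoglycan brevican (difference -2.00, root mean square distance 0.0925 log2 units), the transcriptional coactivator gene Ppargc1a (-1.90, distance 0.097) and Fads3 (-1.89, distance 0.108). Those nearest to Pard3 were Acly, which encodes ATP citrate lyase (1.02, distance 0.048), Magi1 (0.99, distance 0.0567) and the Mediator subunit gene Med27 (1.01, distance 0.0575). The search ran over 12748 genes, and 6 arrays in 2 groups rank genes mainly by their group difference.

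Markers of microglia and of meninges were mostly lower in positive cells, and the lists for other cell types were less uniform. Of 11 tested microglia markers, 11 were lower and 0 higher, with a summed level of 4.40 to 7.98 on the positive arrays and 14.6 to 19.1 on the negative arrays, and Laptm5 alone of the 12 listed was below background throughout the positive arrays. Of 9 tested meningeal and mesenchymal markers, 8 were lower and 0 higher, at 2.84 to 3.48 on the positive arrays and 7.09 to 11.1 on the negative arrays, with Col3a1, Lum, Pdgfra and Col6a1 below background on all positive arrays and Foxc1 on all arrays of both groups. Of 8 tested endothelial and pericyte markers, 5 were lower and 0 higher, although their summed level was 9.60 to 10.6 on the positive arrays and 8.40 to 9.61 on the negative arrays, and Cdh5, Pdgfrb, Rgs5, Abcc9 and Kcnj8 were below background on all positive arrays and Tek on all arrays of both groups. The summed levels of the choroid plexus, erythroid and ventral lists overlapped between the groups, at 1.16 to 1.47 on the positive arrays and 1.39 to 2.25 on the negative arrays for choroid plexus, 5.82 to 21.8 on the positive and 16.5 to 24.3 on the negative arrays for erythroid cells, and 7.52 to 9.41 on the positive and 7.47 to 12.4 on the negative arrays for ventral telencephalon. Of the choroid plexus markers 1 of 4 tested was lower (Aqp1, -1.07), and of the erythroid markers 1 of 5 (Epor, -1.40). Of the 7 tested ventral telencephalic markers, 1 was higher and 1 lower. The lower gene was Gad1 (-1.91), well above background on 1 positive array. It was not called after normexp background correction (-0.51, adjusted p = 0.0666). The postmitotic neuron list had 5 higher and 4 lower of 12, at 146 to 185 on the positive arrays and 85.3 to 126 on the negative arrays. Under quantile normalization and in the authors' processed values it had 3 higher and 4 lower. By smallest adjusted p, the radial glia list was led by Ttyh1 (-1.81) and Slc1a3 (-2.12), the intermediate progenitor list by Elavl2 (2.34) and Hes6 (2.08), and the neuron list by Rbfox3 (2.15) and Neurod6 (2.03). Those neuron markers were higher, whereas the lowest on that list stood at -1.66. In the same way Trem2 (-2.83) and Laptm5 led the microglia list, Col4a1 (-3.04) and Col3a1 the meningeal list, and Rgs5 and Pdgfrb the endothelial and pericyte list. Where no positive array was well above background these folds are bounds, the brighter mean over the lowest signal well above background: at least 4.11-fold lower for Laptm5, 16.6-fold for Col3a1, 7.09-fold for Rgs5 and 8.42-fold for Pdgfrb. These bounds hold for the scanner's processed signal alone. The normexp background correction added an offset of 50 intensity units, which narrows log2 differences between dim signals. After it the log2 differences were smaller, at -0.76 for Laptm5, -2.06 for Col3a1, -1.34 for Rgs5 and -1.35 for Pdgfrb. They were -1.73 for Trem2, -1.90 for Col4a1, -0.54 for Aqp1 and -0.67 for Epor, and all 8 were still called. The part of these cells in the values of the polarity genes was not tested, and fewer cells of a type cannot be told apart from less RNA per cell.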

How the data were processed

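The authors' deposited scanner files hold 1-colour (Cy3) intensity values per spot made by Feature Extraction 10.7.1.1 from Agilent, per the file headers and the submitters' processing notes. The processed signal is after that software's background subtraction and detrending, and arrays were not scaled to each other. A second table deposited by the authors holds log2 values. Its 6 columns share their quantiles, so they were read as quantile normalized from the values alone. No source used here gives the steps, and the table served as an alternative. Per the labels' protocols, 50 ng of total RNA was labelled for each array.

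Control spots and spots marked as outliers (118 to 191 per array) were left out, and repeat spots were averaged per probe as log2 values. Each array's 75th percentile over non-control probes (213 to 341 intensity units) was subtracted. No spot was saturated (0 spots). Of 55681 probes, 26370 were named through RefSeq (GRCm38.p6). A probe entered the test if all 3 arrays of either group had it well above background, and a gene was represented by its brightest tested probe. Groups were compared over 13136 genes in R 4.3.3 by linear models with moderated statistics (limma 3.58.1, with no term but group). P-values were adjusted by Benjamini-Hochberg across these genes, with 0.05 as threshold. The fit was tested on simulated data. No value of a member probe was missing. All 6 arrays lay on 1 slide in 1 scan, so neither could serve as a block. The labels do not say that same-numbered arrays share embryos. Deviations from group means correlated at 0.23, 0.13 and 0.37 between same-numbered arrays, so these were taken as pairs. Separate pools of embryos are the replicates, and their number limits the precision.

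Members and lists were chosen with earlier results of these data known. Named genes are all members with their probes, up to 4 called genes of each related list and up to 2 of each marker list with the smallest adjusted p (where none was called, the 1 with the largest statistic), and the 3 nearest patterns to Crb2 and to Pard3. A marker gene that this rule names is not reported here. Alternatives changed the scaling, background correction, filter, probe choice, replicate block or variance model, or left out 1 array, and the closing section gives their effect.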

Additional observations from a re-analysis of the deposited data

How the results depend on the processing

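Each tested member was refitted under 15 alternatives, and direction and call were both kept in 104 of the 120 refits, with 0 reversals. The replicate block, the variance trend and robust fit, and the unfiltered fit left each member's difference unchanged, so they could not reverse a direction. The mean of a gene's probes likewise changed nothing for members with 1 tested probe. Where the groups did not overlap, leaving out 1 array could not reverse a direction either. The absence of reversals in such refits was fixed in advance. Quantile normalization and the authors' processed values gave nearly equal differences. Pard6g and Prkci, called in no setting, make up 15 of the kept refits each. All 16 lost calls belong to Pals1 (4), Pard6b (10) and Prkcz (2). Pard6b lost its call with quantile normalization (-0.40), median centring (-0.38), normexp background (-0.19), the authors' processed values (-0.40), no filter on dim probes, a variance trend and robust fit, and without Tis21-GFP positive replicate 1 (-0.52), positive replicate 2 (-0.51), negative replicate 2 (-0.56) or negative replicate 3 (-0.45). The number of lower members was 3 with median centring, 2 when dim probes were kept and 3 to 5 with each array left out, and the number of higher members was 1 in every setting run. The number of lower related polarity genes was 5, against 2 under median centring, 3 when dim probes were kept and 3 to 5 with an array left out, and the number higher was 6, against 6 to 7 with an array left out and 9 under median centring. The variance trend and robust fit gave 9 higher and 5 lower of these genes, the replicate block 8 higher and 6 lower, and the percentile over detected probes 6 higher and 7 lower. The shift of Pard6b minus Pard6g was -0.50 with quantile normalization, -0.51 with normexp background (exact permutation p = 0.2) and -0.50 with the authors' processed values. It ran from -1.09 to -0.78 with each array left out. That of Prkci minus Prkcz was 0.66 both in the authors' processed values and under quantile normalization (exact permutation p = 0.3 in each), and ran from 0.60 to 1.11 with an array left out, and that of Crb2 minus Pard3 from -3.16 to -2.71. With the replicate block, 5 members were lower and 1 higher, as without it, and it changed no call of a member. Higher genes made up 49.6% of all calls, 65.8% under median centring, 29.1% when the 75th percentile came from probes detected on all arrays, 39.6% under quantile normalization, 39.5% with the authors' processed values and 39.4% with no filter. The number of higher genes was 1687, against 933 with that percentile, 1123 with the authors' processed values, 896 with no filter, and, on leaving out 1 array, 1057 (positive replicate 1), 796 (negative replicate 1) and 791 (negative replicate 3). Llgl1 and Pard3b were limited by signal over background. With no filter they differed by 0.46 (adjusted p = 0.63) and -0.43 (adjusted p = 0.661). The causes of these changes were not tested. Slide or scan as a block was not run, since there was 1 of each.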
